A study of Mus musculus with 15 samples.

Results

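The genes described here are 10 mouse genes of the AP-1 and immediate early group, read from count tables that list 37583 genes: the FOS family members Fos, Fosb, Fosl1 and Fosl2, the JUN family members Jun, Junb and Jund, and the transcription factor or response genes Atf3, Egr1 and Ier2. They were taken by symbol, each matched to a single Ensembl identifier, and were chosen with earlier results of these data known. AP-1 is a dimer of a FOS and a JUN protein, or of 2 JUN proteins, that binds short palindromic sites in DNA. Immediate early genes are transcribed without new protein synthesis when growth factors, phorbol esters or stress activate kinases of the MAP kinase and protein kinase C families. In mouse skin, AP-1 is the classical target of the tumour promoter TPA, and its FOS and JUN members are known for roles in keratinocyte growth and differentiation and in papilloma formation.

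RNA was measured in sorted skin tumour cells of C57BL/6 mice. The KO group carried K14-cre and SIRT6 flox/flox, so that deletion is driven by a promoter active in basal keratinocytes, and the other group is labelled WT with no further allele given. All mice, KO and WT alike, had received the mutagen DMBA and the tumour promoter TPA for more than 24 weeks. Cells were sorted on CD34, a surface protein of hair follicle stem cells and of stem-like cells in these tumours, and on a6, the integrin alpha 6 encoded by Itga6, into 3 populations. They are called here CD34-positive cells (all of them a6-high), CD34-negative a6-high cells and a6-low cells (all of them CD34-negative). Each population had 2 KO and 3 WT libraries, 15 in all. Ages and tumour counts are not in the labels, and nothing in them ties a library to an animal, so that p-values measure the spread between these libraries, part of which may be technical.

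KO libraries held 19.78 to 28.62 M gene counts and WT libraries 10.08 to 21.56 M. Sirt6 had 5.07 to 8.53 counts per M gene counts (CPM, on library sizes scaled by the TMM method) in KO libraries and 4.45 to 10.5 CPM in WT libraries. The groups overlapped, and a gene-level count that includes exons outside the deleted part does not check the genotype. Cd34 RNA followed the sort, at 163 to 214 CPM in all CD34-positive libraries, against 4.51 to 40.3 CPM in the CD34-negative ones, and summed basal keratinocyte markers (Krt5, Krt14, Itga6, Itgb4, Col17a1 and Trp63) reached 34710 to 83117 CPM in every library. Itga6 RNA did not follow the sort in 2 a6-low libraries, KO replicate 2 (445 CPM) and WT replicate 1 (471 CPM), which lay among the a6-high libraries (263 to 576 CPM), whereas the other 3 a6-low libraries had 67.9, 94.1 and 174 CPM. Results on a6-low cells are therefore also given without these 2 libraries. Of the other cell types, the 6 fibroblast markers summed to at most 4.33 CPM, with Lum at 0 in all 15 libraries, and the 8 leukocyte markers to between 9.89 and 181 CPM.

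Upstream sequence of the genes is shown because several of them moved together between libraries. A promoter record was matched in RefSeq (GRCm38.p6) for 7 of the 10 genes, all but Egr1, Fosl1 and Ier2, and 4 are printed: Fos, the most abundant member, Jun and Atf3, which varied together, and Fosl2, which followed the sorted populations most closely. Each is the 250 bases before the annotated start, in the direction of transcription: Fos at chr12:85473640-85473889 on the plus strand, Jun at chr4:95052223-95052472 on the minus strand, Atf3 at chr1:191183334-191183583 on the minus strand and Fosl2 at chr5:32136222-32136471 on the plus strand. Capitals mark TGANNTCA, an AP-1 or CRE site with a central pair of bases, and TGACG, the core of a CRE, on either strand.
Fos: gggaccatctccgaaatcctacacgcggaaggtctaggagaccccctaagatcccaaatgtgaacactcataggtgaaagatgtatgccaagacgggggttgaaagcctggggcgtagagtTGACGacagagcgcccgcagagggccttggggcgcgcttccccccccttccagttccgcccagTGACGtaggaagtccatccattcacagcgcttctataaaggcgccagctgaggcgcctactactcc
Jun: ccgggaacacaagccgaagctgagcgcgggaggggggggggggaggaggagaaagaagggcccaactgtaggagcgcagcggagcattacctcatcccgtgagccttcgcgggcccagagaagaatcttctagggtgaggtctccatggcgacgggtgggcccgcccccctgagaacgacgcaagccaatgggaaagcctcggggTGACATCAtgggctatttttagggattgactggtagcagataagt
Atf3: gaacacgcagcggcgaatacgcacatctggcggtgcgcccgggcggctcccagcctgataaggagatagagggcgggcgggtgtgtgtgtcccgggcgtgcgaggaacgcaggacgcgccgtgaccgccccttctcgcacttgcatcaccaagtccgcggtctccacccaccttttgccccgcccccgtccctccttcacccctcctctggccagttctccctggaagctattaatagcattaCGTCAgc
Fosl2: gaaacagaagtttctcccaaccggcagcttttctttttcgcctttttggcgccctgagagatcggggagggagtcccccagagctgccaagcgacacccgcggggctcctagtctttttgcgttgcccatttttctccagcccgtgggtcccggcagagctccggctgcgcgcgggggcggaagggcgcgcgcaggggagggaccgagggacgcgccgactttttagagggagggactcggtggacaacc
In Fos, TGACG began 129 and 66 bases before the start and TATAAA 33 bases before it. The Jun window held TGACATCA from 45 bases before the start, a match to TGANNTCA, and the Atf3 window held CGTCA, the other strand of TGACG, from 7 bases before it. The Fosl2 window held none of the 5 motifs searched, which were the AP-1 forms TGANTCA and TGANNTCA, the CRE core TGACG, the TATA box as TATAAA, and the CArG box of serum response factor. TGACG was found in 4 of the 7 member windows and in 17.8% of all 32851 promoter windows of that length, and TGANNTCA in 2 of 7 and 11.9%. TGANTCA was in 0 of 7 member windows and 6.75% of all windows, and the CArG box in 0 of 7 and 1.47%. Sequence more than 250 bases before the start was not searched, nor were Egr1, Fosl1 and Ier2. A count of 0 of 7 therefore does not show that a gene lacks such a site. A TGACG match can lie within a TGANNTCA match. The motifs were chosen with these sequences in view, and a match describes letters only.

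Most of the 10 genes were abundant in every population. All 15 libraries came from sorted cells, and the effect of tissue handling and sorting on these levels was not tested. Levels between genes are compared as CPM per kilobase of merged exons. Fos, whose protein pairs with JUN proteins, ranked first with 2355 ± 697 CPM per kb (SD, n = 15 libraries) and stood at ranks 6 to 30 among 32860 genes with a length. It was above Junb in 15 of 15 libraries. Below Fos came Junb, Ier2, Atf3, Jun, Egr1, Jund, Fosl1, Fosb and, last, Fosl2. Neighbours in the middle of that order were not separated by their spread: Junb exceeded Ier2 in 10 of 15 libraries, Ier2 exceeded Atf3 in 12 and Atf3 exceeded Jun in 13. With the longest transcript in place of merged exons, Ier2 and Atf3 changed places. Each of the other neighbouring pairs kept its order in 15 of 15 libraries.

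Among the 7 FOS and JUN family genes, Fos made up 61.0 ± 6.74% of the summed level per kb (SD, n = 15), Junb 20.7%, Jun 11.9% and Jund 4.37%. Fosl1, whose product FRA-1 has no transactivation domain of the FOS type, made up 1.59 ± 1.06%, Fosb 0.371% and Fosl2, which encodes the related FRA-2, 0.0966 ± 0.0380%. RNA shares say nothing of protein, and the members share each library's depth. In a6-low cells the Fos share ran from 42.0% to 64.3%. Its lowest value and the highest Fosl1 share (4.47%) were both in 1 a6-low library, KO replicate 2 (Fos 3328 CPM, Fosl1 306 CPM). The next lowest Fos share was in a6-low WT replicate 1. These are the 2 libraries whose Itga6 RNA went against the sort, so the low Fos shares are not shown for a6-low cells in general.

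**Figure D1:**
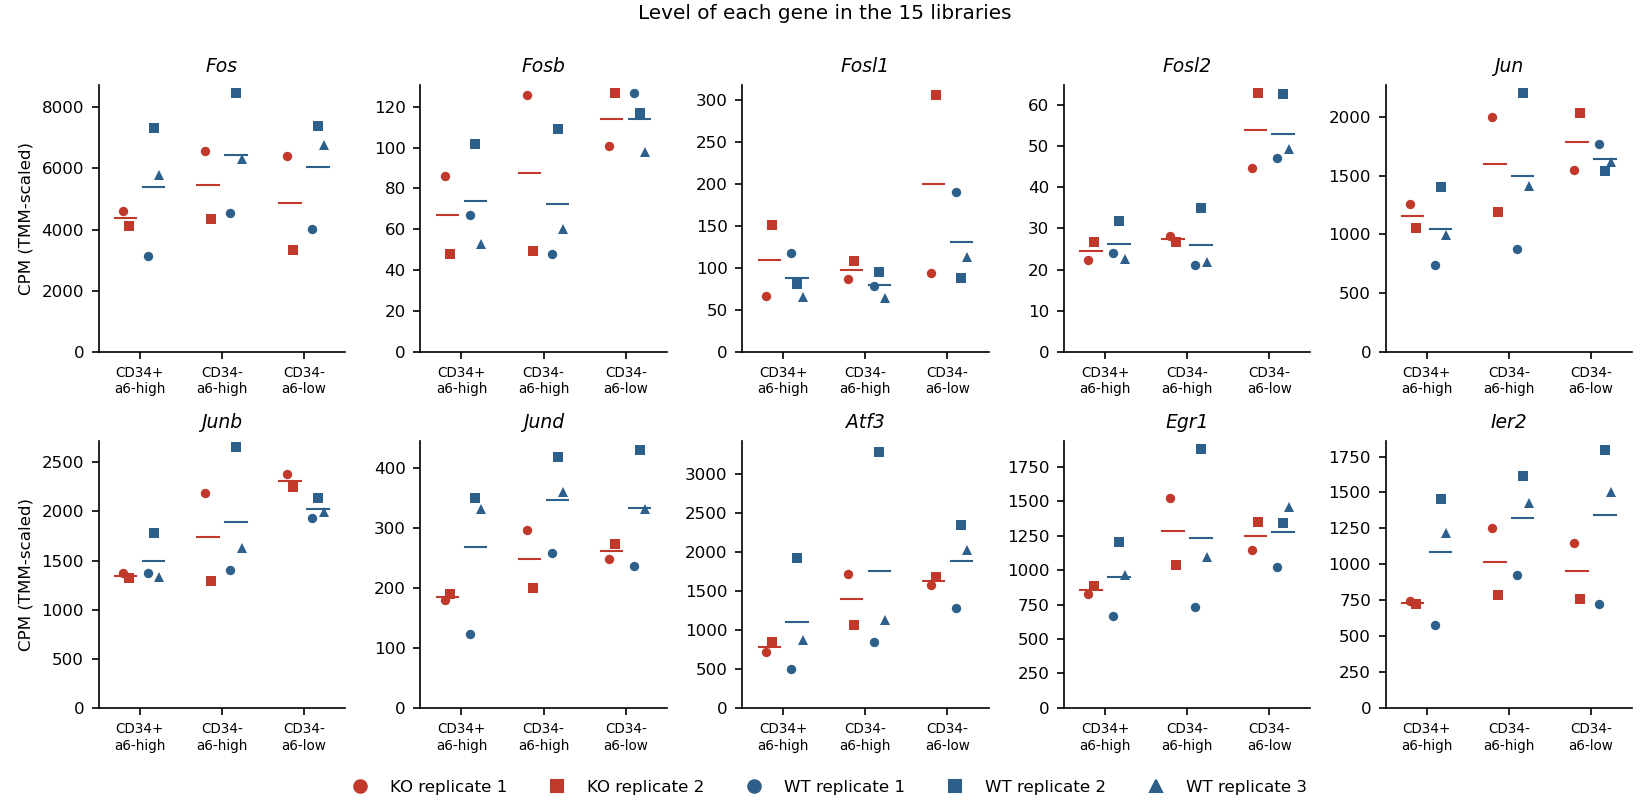
Level of each gene in CPM on TMM-scaled library sizes (y axis, from 0) in the 3 sorted populations (x axis), with KO libraries left and WT libraries right; each point is a library, its shape the replicate number, and lines are group means. For Fosl2 the 10 a6-high libraries (21.1 to 34.9 CPM) all lie below the 5 a6-low libraries (44.8 to 63.0 CPM). For Atf3 and Ier2, WT replicate 2 is the highest and WT replicate 1 the lowest of the WT libraries in each population.

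Fosl2 separated the populations most clearly. In CD34-positive cells it had 22.3 and 26.6 CPM in the 2 KO libraries and 24.1, 31.8 and 22.6 CPM in the 3 WT libraries. CD34-negative a6-high cells had 28.2 and 26.6 CPM in KO and 21.1, 34.9 and 21.9 CPM in WT libraries. a6-low cells had 44.8 and 63.0 CPM in KO and 47.1, 62.8 and 49.3 CPM in WT libraries. All 10 a6-high libraries were thus below all 5 a6-low libraries, a pattern shared by 43 of the 14652 genes tested (0.293%). Both libraries whose Itga6 went against the sort, KO replicate 2 and WT replicate 1, sat with the other a6-low libraries for Fosl2.

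In CD34-positive against a6-low cells, Fosl2 averaged 25.5 ± 3.91 CPM and 53.4 ± 8.83 CPM (SD, n = 5 each), and its log2 difference was -1.08 ± 0.19 (SE; 95% interval -1.49 to -0.66), 2.11-fold higher in a6-low cells. The edgeR quasi-likelihood test gave an adjusted p of 0.0153 over all genes. It was lower in 5 of 5 same-numbered pairs, as were 14.4% of all genes tested. Without the 2 a6-low libraries the log2 difference was -0.98 (adjusted p = 0.0220). The call was lost without CD34-positive KO replicate 1 (adjusted p = 0.0791) and without all 3 libraries of KO replicate 2 (-1.01, adjusted p = 0.0892), with the difference almost as large. In CD34-negative cells alone, a6-high against a6-low, the level of Fosl2 in a6-high cells was 0.499 of that in a6-low cells (95% interval of the ratio 0.374 to 0.665) but the difference did not pass (edgeR adjusted p = 0.165), although DESeq2 gave 2.92e-04. Within a6-high cells Fosl2 differed between CD34-positive and CD34-negative libraries by -0.08 ± 0.19 (95% interval of the fold 0.713 to 1.26).

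CD34-positive cells had the lower fitted level of all 10 genes when set against a6-low cells, with a median log2 difference of -0.63 beside -0.02 over all genes. Of the 10, 1 gene (Fosl2) fell past the threshold, beside 4.93% of all genes called, and 2.68% called lower. With the replicate number within genotype as a block, 3 genes fell (Fosl2, Junb and Atf3), beside 11.8% of all genes, and DESeq2 called 2 (Fosl2 and Junb), beside 10.9%. Without the 2 a6-low libraries that went against the sort, 9 had the lower and 1 the higher level (median -0.54). There 1 passed (Fosl2), beside 979 of 15364 genes. Without all 3 libraries of KO replicate 2, all 10 had the lower level (median -0.47) and 0 passed, beside 116 of 14912 genes. These 2 populations differ in both sort markers, so that neither can be named as the one a gene followed. In bulk RNA, fewer cells with a gene on and less of its RNA per cell cannot be told apart.

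Junb, a JUN protein that can restrain the activity of c-JUN, had 1368 and 1320 CPM in KO and 1374, 1777 and 1330 CPM in WT CD34-positive libraries. In a6-low cells it had 2380 and 2244 CPM in KO and 1933, 2137 and 1997 CPM in WT libraries, with no overlap between the populations. The log2 difference was -0.61 ± 0.20 (edgeR adjusted p = 0.0948; 0.0310 with the block and 0.0377 by DESeq2). Jun itself also did not overlap, at 1258 and 1056 CPM in KO and 739, 1401 and 997 CPM in WT CD34-positive libraries, against 1545 and 2036 CPM in KO and 1766, 1540 and 1620 CPM in WT a6-low libraries. Its difference of -0.64 ± 0.26 did not pass (edgeR adjusted p = 0.169). With Fosl2, 3 of the 10 genes were lower in CD34-positive cells without overlap, beside 3.67% of all genes.

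Atf3, a stress-induced repressor of the ATF family that can pair with JUN proteins, had 715 and 844 CPM in KO and 498, 1920 and 876 CPM in WT CD34-positive libraries. In a6-low cells it had 1581 and 1681 CPM in KO and 1285, 2339 and 2030 CPM in WT libraries. The groups overlapped through WT replicate 2, and the log2 difference of -0.92 ± 0.41 did not pass (adjusted p = 0.215), whereas with the block it was -1.03 (adjusted p = 0.0137). All 5 same-numbered pairs were lower in CD34-positive cells.

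Fosb, an activator of the FOS family, differed by -0.70 ± 0.31 (adjusted p = 0.210) and Egr1, a zinc finger factor induced by serum, by -0.48 ± 0.25 (adjusted p = 0.287). Fos differed least, by -0.16 ± 0.29 (adjusted p = 0.799; 95% interval -0.78 to 0.46), at 3124 to 7314 CPM in CD34-positive libraries, against 3328 to 7377 CPM in the a6-low ones. Jund, a further JUN gene, and Ier2, a small nuclear protein gene, differed by -0.41 and -0.34. For Fos, Jund and Ier2 the spread within a population covered the difference between populations.

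Fosl1 depended on the libraries that went against the sort. CD34-positive cells had 66.0 and 151 CPM in KO and 117, 80.7 and 64.9 CPM in WT libraries. In a6-low cells it had 93.7 and 306 CPM in KO and 190, 88.2 and 113 CPM in WT libraries, and the 306 and 190 CPM belong to KO replicate 2 and WT replicate 1, whose Itga6 RNA was high. The log2 difference was -0.73 ± 0.34 (edgeR adjusted p = 0.241) with all libraries and 0.0050 without those 2. In CD34-negative cells, a6-high against a6-low, it was -0.88 with all libraries and -0.15 without them.

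**Figure D2:**
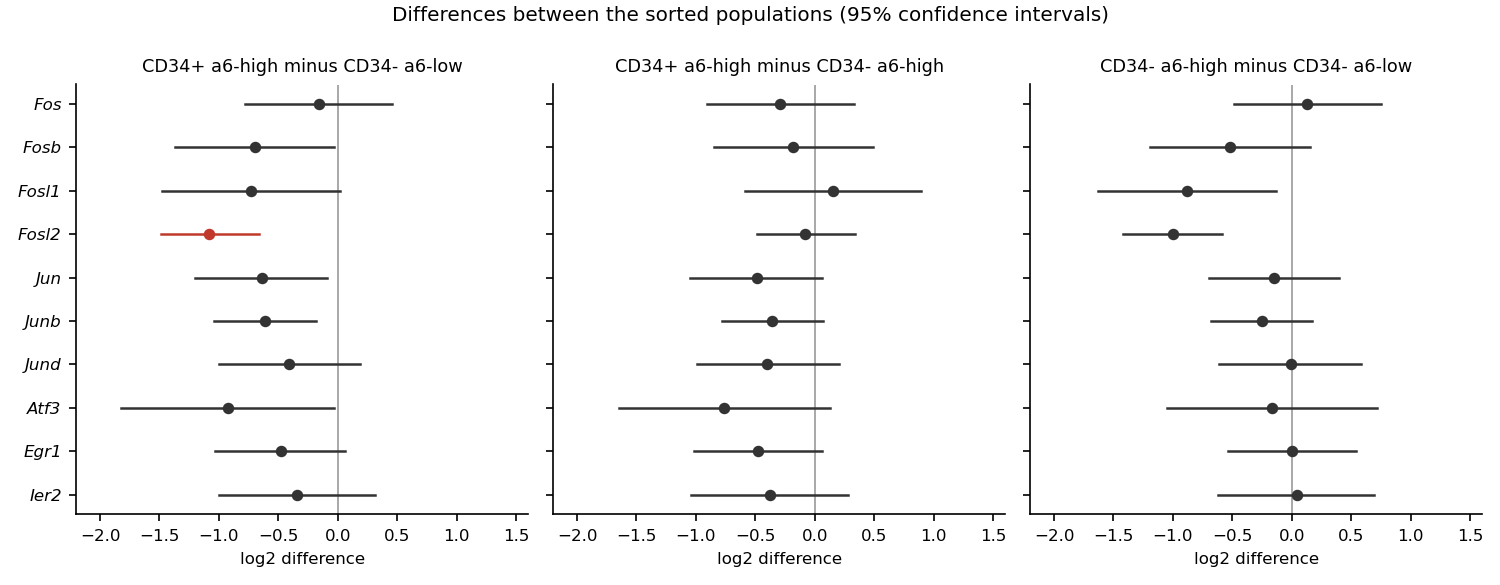
Log2 difference of each gene between sorted populations with its 95% confidence interval (x axis), from the edgeR fit of all 15 libraries; red marks an adjusted p under 0.05. All 10 points of CD34-positive minus a6-low cells lie below 0, and Fosl2 is the red one, at -1.08; minus CD34-negative a6-high cells, 9 of 10 points lie below 0 and each interval crosses it.

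Within a6-high cells, CD34-positive cells had the lower fitted level of 9 of the 10 genes (median log2 difference -0.37, against -0.02 over all genes). None passed the edgeR test (0 of 10, beside 1.17% of all genes; unadjusted p under 0.05 in 0 of 10; 0 with the block, beside 5.41%, and 0 by DESeq2, beside 5.82%). Atf3 differed by -0.76 ± 0.41 (adjusted p = 0.441), Jun by -0.49 ± 0.26 and Egr1 by -0.48 ± 0.25. Fos, Jun, Jund, Atf3, Egr1 and Ier2 were lower in CD34-positive cells in 5 of 5 same-numbered pairs, as were 10.2% of all genes. All groups overlapped. Fosl1 was the exception in direction, at 0.15 ± 0.34, and at -0.13 without the libraries of KO replicate 2.

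In CD34-negative cells, a6-high against a6-low, 8 genes had a lower and 2 a higher fitted level in a6-high cells, with a median of -0.16. Fos differed by 0.13, Ier2 by 0.04, Jund by -0.01 and Jun by -0.15 on the log2 scale, each by less than its standard error. None of the 10 passed (0 by edgeR, beside 0.00683% of all genes; unadjusted p under 0.05 in 2; 1 by DESeq2, beside 1.66%). Without the 2 libraries that went against the sort, all 10 had the lower level in a6-high cells, with a median of -0.21, and 0 passed. Without KO replicate 2, 6 had the higher and 4 the lower level, with a median of 0.03, and 0 passed.

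The comparison of KO with WT tumours concerns SIRT6, a chromatin deacylase, and the 10 genes gave no call in it. Of KO against WT libraries, 0 of 10 passed in CD34-positive cells, 0 in CD34-negative a6-high cells and 0 in a6-low cells (each beside 0.00683% of all genes), and 0 of 10 in counts summed over the populations (0.00641%). The unadjusted p was under 0.05 for 0 genes in each. DESeq2 gave 0 in each as well, beside 0.184%, 0.259%, 0.0410% and, in the sums, 0.917% of all genes. The smallest adjusted p values were 0.702, 0.668, 0.865 and 0.581. Medians were -0.15, -0.03, -0.01 and, for the sums, -0.06, against 0.01, 0.05, 0.04 and 0.03 over all genes.

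The widest genotype differences were of Fosl1, Jund, Ier2 and Atf3. Jund averaged 184 ± 6.43 CPM in KO and 268 ± 126 CPM in WT CD34-positive cells (SD, n = 2 and 3), a log2 difference of -0.54 ± 0.39. In the sums it was -0.45 (95% interval -1.16 to 0.27), and KO and WT libraries overlapped in each population. Ier2 differed by -0.57 in CD34-positive cells, by -0.38 in CD34-negative a6-high cells and by -0.49 in a6-low cells, with KO libraries inside the range of the WT libraries in CD34-positive and a6-low cells. Fosl1 was at 0.62 ± 0.48 in a6-low cells and at 0.40 (95% interval -0.49 to 1.30) in the sums, and without KO replicate 2 these were -0.48 and -0.30. Fosl2 differed by -0.10, 0.08 and 0.02, and in the sums by 0.03 (95% interval -0.43 to 0.49). For Fos, with 4912 ± 1477 CPM in KO and 6060 ± 2083 CPM in WT sums, the interval ran from -1.12 to 0.52. Intervals this wide hold a change of more than 2-fold for some members, so that a change of that size was within the error with 2 KO libraries.

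Junb was the only one of the 10 whose KO and WT libraries did not overlap in a6-low cells (2244 and 2380 CPM in KO, against 1933 to 2137 CPM in WT), as did not 14.9% of all genes there, and its adjusted p was 0.912. The CD34 and a6 differences of the 10 genes were not shown to differ between KO and WT: 0 passed in either test of the difference (0 of all genes by edgeR; by DESeq2 0 of the 10, beside 0.00683% and 0%), and the smallest unadjusted p values were 0.517 and 0.440.

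**Figure D3:**
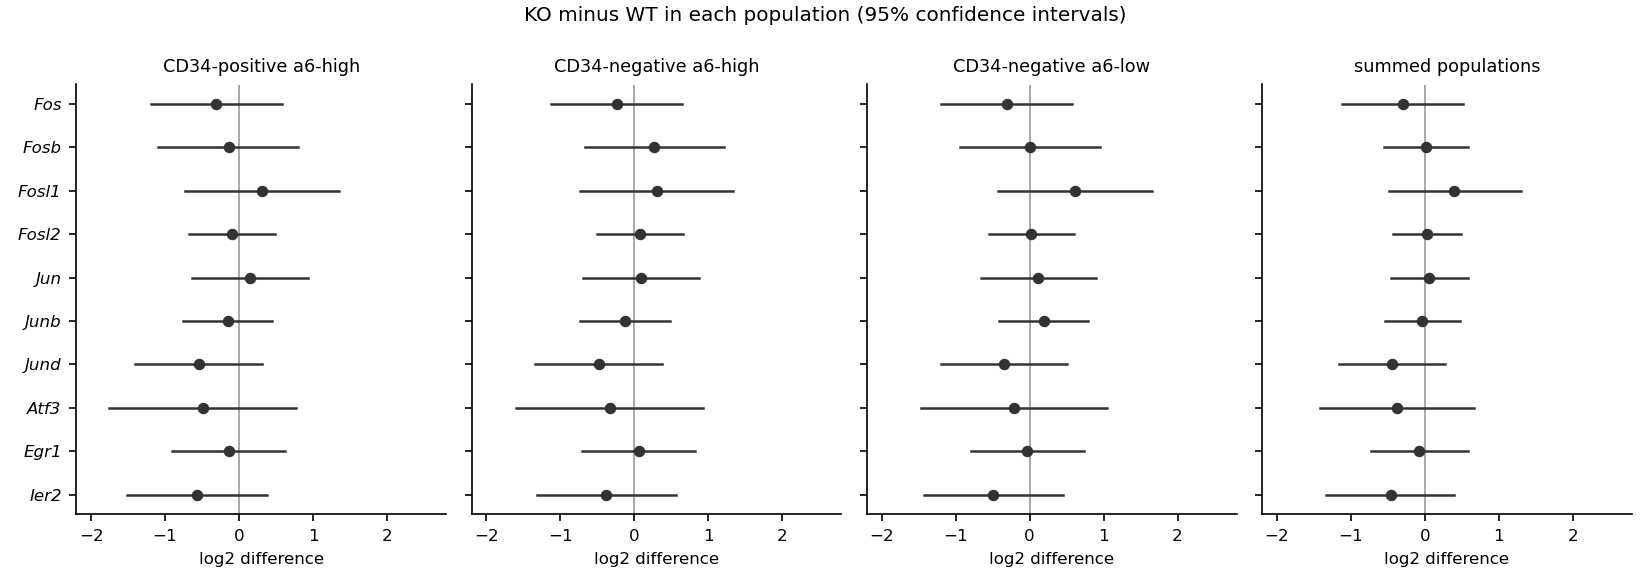
Log2 difference of each gene, KO minus WT, with its 95% confidence interval (x axis), in each sorted population and in counts summed over the populations. Every interval drawn contains 0, and none of the 10 genes passed the threshold.

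The replicate labels were also compared. In CD34-positive cells the library of WT replicate 2 was the highest for 9 of the 10 genes, beside 21.4% of all genes, and in CD34-negative a6-high cells for 8 of 10, beside 14.0%. In a6-low cells it was the highest for 4 of 10, beside 24.1%, and KO replicate 2 for another 4. WT replicate 1 was the lowest for 6 genes in CD34-positive cells (17.6% of all genes), for 5 in CD34-negative a6-high cells (25.6%) and for 5 in a6-low cells (15.5%). Ier2, for example, had 1457, 1614 and 1799 CPM in the 3 libraries of WT replicate 2, and 576, 926 and 723 CPM in those of WT replicate 1. Fos had 7314, 8485 and 7377 CPM in WT replicate 2, and 3124, 4540 and 4007 CPM in WT replicate 1.

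The means of the 5 replicate labels (3 libraries each, centred by population) spanned more than the means of the 3 populations (5 libraries each) for 7 of the 10 genes, beside 79.7% of all genes tested. A span over 5 means of fewer libraries tends to be the wider one. The label means spanned 1.15 for Ier2 on the log2(CPM + 1) scale, 1.02 for Jund and 0.87 for Egr1, while the means of the 3 populations spanned 0.39 for Ier2, 0.45 for Jund and 0.49 for Egr1. Fosl2 was the other way round, with 0.50 between labels and 1.03 between populations, and so were Junb (0.48 and 0.58) and, narrowly, Fosb (0.70 and 0.73), while Jun was nearly tied (0.68 and 0.67). The 13 heat shock genes summed to 7735, 8384 and 7508 CPM in the libraries of WT replicate 2, and to 7746, 6974 and 7053 CPM in those of WT replicate 1, within 6226 to 8835 CPM over all libraries. What the replicate numbers stand for is not in the labels, and their part in the results was not tested beyond the block.

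**Figure D4:**
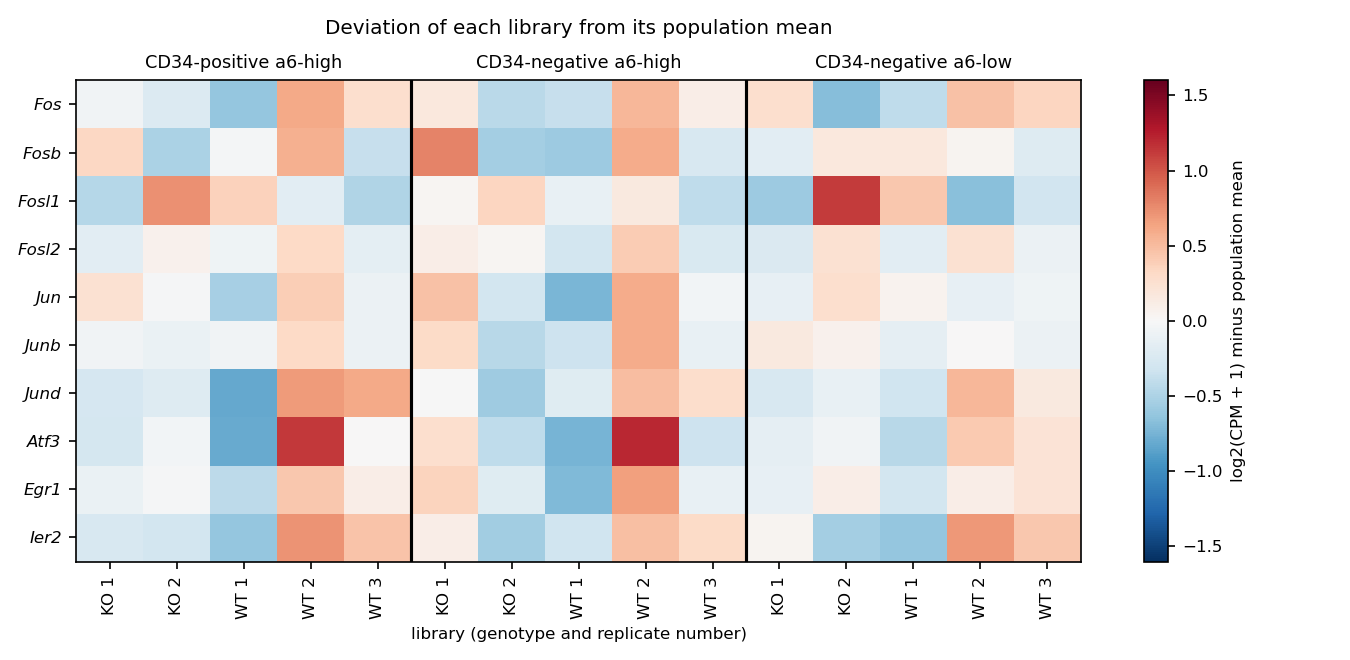
Deviation of each library from the mean of its population on the log2(CPM + 1) scale (colour), for the 10 genes (rows) and 15 libraries (columns, in 3 populations). The WT 2 columns are red for 9 of 10 genes in CD34-positive cells, where WT 2 is the highest library, the WT 1 columns mostly blue, and the Fosl1 row runs against the Fos and Ier2 rows.

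Over the 15 libraries the genes fell into sets that varied together. As a description of these libraries, which share depth, population and label, Fos and Ier2 had a Pearson r of 0.95, Atf3 and Egr1 0.95, Jund and Ier2 0.92 and Jun and Egr1 0.90. After centring each population they were 0.95, 0.93, 0.91 and 0.86. Fosl1 ran against Fos (-0.58; -0.69 after centring) and Ier2 (-0.48; -0.66). Fosl2 varied least with Fos (0.14) and more with Fosb (0.74) and Junb (0.73).

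Outside the 10 genes, the closest profiles among 6330 genes were found by Pearson r over the 15 libraries. For Fos they were Mto1 (0.89), Rab3d, Sertad3, Paqr4 and Nr2f6. For Jund they were Npdc1 (0.92), Mmaa, Mri1, Dapk3 and again Rab3d (0.88). Fosl1 was most like Plet1 (0.94), Ier5 (0.93), Sox9 (0.93), Mdm2 (0.93) and Spag9 (0.92), and with its 2 farthest libraries left out these were 0.75 to 0.84. Closest to the mean of the 10 genes were Bhlhe40 (0.92), Ralgds (0.91), Dctn4, Sytl1 and Vps37c. Fosl2, a profile added after its values were seen, was most like Mtf1 (0.92), Slc30a1 (0.91), Ubald1 (0.90), Slc25a25 and Hbp1.

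Of 22 other immediate early genes, 5 fell past the threshold and 0 rose in CD34-positive against a6-low cells, beside 4.93% of all genes called and 2.68% called lower. The fitted level was lower in CD34-positive cells for 20 of the 22, with a median log2 difference of -0.60. Egr2, a zinc finger factor related to Egr1, averaged 19.6 ± 9.18 CPM in CD34-positive and 129 ± 67.6 CPM in a6-low cells (SD, n = 5 each), without overlap, a log2 difference of -2.67 ± 0.35 (edgeR adjusted p = 0.00691). Klf10, induced by TGF-beta, averaged 185 and 328 CPM (-0.86, adjusted p = 0.0202), and Ppp1r15a, which encodes the stress-induced phosphatase subunit GADD34, 187 and 330 CPM (-0.91, adjusted p = 0.0202). Klf2 (-2.02, adjusted p = 0.0261) and Egr3 (-1.99, adjusted p = 0.0497) fell as well, Egr3 from few counts, at 0.410 to 2.49 CPM in CD34-positive cells. With the block 8 of the 22 fell and 1 rose, beside 11.8% of all genes called. Without the 2 libraries that went against the sort 3 fell (Egr2, Klf2 and Ppp1r15a) and 1 rose (Ccn1), beside 979 of 15364 genes called. Without KO replicate 2 only Egr2 fell, beside 116 of 14912 genes called.

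Within a6-high cells, 0 of these 22 genes passed between CD34-positive and CD34-negative cells, beside 1.17% of all genes. Egr2 came closest (19.6 ± 9.18 and 53.9 ± 33.5 CPM, -1.41, edgeR adjusted p = 0.0606). With the block 3 fell (Egr2, Klf2 and Gadd45b), beside 5.41% of all genes called. In CD34-negative cells 0 of 22 passed between a6-high and a6-low cells, with Egr2 (53.9 ± 33.5 and 129 ± 67.6 CPM) and Ccn1, a secreted matricellular protein gene (647 ± 107 and 254 ± 140 CPM), among the smallest p values (adjusted p = 0.226 and 0.246). Without the 2 libraries that went against the sort Ccn1 rose in a6-high cells, with 1 of 22 passing, beside 342 of 15364 genes. With all 15 libraries DESeq2 called Ccn1 higher and Egr2 and Klf4 lower, beside 1.66% of all genes called. Of 10 further AP-1 family genes (BATF, JDP2, ATF and MAF members) 8 could be tested. All 8 had the lower level in CD34-positive than in a6-low cells, median -0.62, and 0 passed by edgeR (Mafk -0.74, adjusted p = 0.0966; 0.0384 by DESeq2). Without the 2 libraries that went against the sort, 3 of them had the higher and 5 the lower level, with a median of -0.25 and 0 passing.

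Of 17 genes for upstream kinases and serum response factors, 2 rose in CD34-positive against a6-low cells, beside 4.93% of all genes called. Elk3, a serum response cofactor of the ETS family, had 44.2 ± 6.70 CPM and 21.2 ± 3.85 CPM (1.08, adjusted p = 0.0156), and Prkca, protein kinase C alpha, an enzyme activated by TPA, had 8.30 ± 1.35 CPM and 4.47 ± 1.08 CPM (0.91, adjusted p = 0.0445). With the block Mapk9 rose too and Map2k4 fell, beside 11.8% of all genes called. Between the a6-high populations 0 of 17 passed, beside 1.17% of all genes. There the block called Elk3 (0.78, adjusted p = 0.0314) and Prkca (1.04, adjusted p = 0.0138) higher in CD34-positive cells, beside 5.41% of all genes called. Against a6-low cells, neither Elk3 nor Prkca passed without KO replicate 2, and only Elk3 did without the 2 a6-low libraries. Of the 13 heat shock genes 0 passed in the fit of all 15 libraries. With the block Hspb1 rose in CD34-positive against a6-low cells (0.58, adjusted p = 0.0451), beside 11.8% of all genes called.

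Of 20 genes known as AP-1 targets in skin, 19 had the higher level in CD34-positive than in CD34-negative a6-high cells (median log2 difference 0.64), although 9 of the 10 AP-1 and immediate early genes had the lower level there. Areg alone, which encodes the growth factor amphiregulin, passed (1 of 20, beside 1.17% of all genes), with 528 ± 250 CPM and 159 ± 30.1 CPM (1.73 ± 0.36, edgeR adjusted p = 0.0370). With the block Sprr1a, Sprr1b and Timp1 rose too, beside 5.41% of all genes called. Without KO replicate 2, 15 of 20 had the higher level (median 0.35) and 0 passed. In CD34-positive against a6-low cells, where all 10 AP-1 and immediate early genes had the lower level, 12 of the 20 had the higher one (median 0.27) and 0 passed. Without the 2 libraries that went against the sort, 15 of 20 had the higher level (median 0.92). Mmp3, Mmp10 and Ptgs2 rose there, beside 979 of 15364 genes called. Between a6-high and a6-low CD34-negative cells, 16 of the 20 had the lower and 4 the higher level in a6-high cells (median -0.71), and 0 passed. There 8 of the 10 AP-1 and immediate early genes had the lower level too. Leaving out the same 2 libraries, 11 of the 20 had the higher and 9 the lower level (median 0.16), and 0 passed. The lists hold genes that other factors control too, and RNA levels of targets do not measure AP-1 activity.

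Markers of other cells differed in part between the populations. The 6 endothelial markers (among them Pecam1, Plvap and Kdr) summed to 6.47 to 51.3 CPM in CD34-positive cells, against 1.05 to 2.61 CPM in CD34-negative a6-high cells, without overlap, and to 1.71 to 17.4 CPM in a6-low cells. The 4 that could be tested were higher in CD34-positive than in CD34-negative a6-high cells (median log2 difference 3.45). Of them 0 were called by edgeR, beside 1.17% of all genes, and 1 (Plvap) with the block, beside 5.41%. The summed leukocyte markers ranged from 22.2 to 47.9 CPM in CD34-positive cells, from 9.89 to 129 CPM in CD34-negative a6-high cells and from 32.2 to 181 CPM in a6-low cells, and overlapped. Of the 8, 6 had the lower and 2 the higher level in CD34-positive against a6-low cells (median log2 difference -1.70). Lyz2 and Tyrobp fell there, beside 4.93% of all genes called. Against CD34-negative a6-high cells, 5 had the lower and 3 the higher level in CD34-positive cells (median -0.53). Cd68 alone passed there and rose, beside 1.17% of all genes called. Differentiated keratinocyte markers (Krt1, Krt10, Ivl, Lor, Sbsn and Krtdap) summed to 5385 to 17869 CPM, 7783 to 13916 CPM and 6184 to 39553 CPM in the same order of populations, again with overlap and 0 of 6 called. Against a6-low cells, 4 of these 6 had the higher and 2 the lower level in CD34-positive cells (median log2 difference 0.21). Against CD34-negative a6-high cells it was also 4 higher and 2 lower (median 0.81). In both comparisons the block called 1 of the 6 higher and 2 lower, beside 11.8% and 5.41% of all genes called. Of the lower ones, Krt1 averaged 1399 CPM in CD34-positive and 6749 CPM in a6-low cells (edgeR adjusted p = 0.0562; 0.00144 with the block). Melanocyte markers reached 132 CPM in a single a6-low library and at most 6.41 CPM in any a6-high library. Between genotypes, leukocyte markers summed to 33.0 to 181 CPM in KO and 9.89 to 104 CPM in WT libraries, with 0 of 8 called. The part of these cells in the differences of Fosl2, Junb, Atf3, Egr2 and Areg was not tested.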

How the data were processed

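Cells were collected by flow sorting and cDNA was made with the SMART-Seq v4 low-input kit, per the labels' protocols. That kit does not mark strand. The deposited tables give raw counts of reads per gene, 1 table per library. The submitters' processing notes list the build mm9 and the tools HTSeq 0.6.0, STAR 2.3.0 and Picard 1.100, without saying which step each did. Between 29.86% and 38.04% of the records were reads aligned to several places, which were not counted for genes. They stand among 5 summary entries that were set aside here. Without strand, reads of a member and of an overlapping antisense gene cannot be told apart. GENCODE M21 supplied names and exon lengths, by identifier, for 32860 of 37583 genes (87.4%). Positions in mm9 are not given, and promoter windows are RefSeq GRCm38.p6.

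Groups came from the labels. edgeR 4.0.16 in R 4.3.3 tested the counts (quasi-likelihood F test, TMM, filterByExpr by group) in 1 fit with 6 group coefficients. All 10 genes were among the 14652 genes that passed the filter (15597 in the sums), and Benjamini-Hochberg adjustment ran over all of them, with a threshold of 0.05. A population difference is the mean of the KO and the WT difference. KO was also set against WT on counts summed over the populations per replicate number (2 against 3). The test was checked on simulated counts. The alternatives used DESeq2 1.42.0, DESeq2 size factors within edgeR, no filter, a filter of 10 CPM in 2 libraries, the compared groups only, a replicate block, and each library left out. Both settings that leave out several libraries were chosen after seeing the data.

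Libraries with the same genotype and number were checked for shared deviations from their group means. The correlations were 0.104 to 0.53 between the a6-high populations and 0.273 to 0.589 between CD34-positive and a6-low libraries, over 0.1 in 5 of 5 pairs each. With 2 KO libraries per group, both KO pairs give 1 and the same value, so that each set holds 4 separate correlations, and the lowest is close to 0.1. These were therefore treated as pairs in the replicate block, on the evidence of the counts, since the labels state no pairing. The reported fit of all 15 libraries had no block and took them as separate. No library was a repeat of another of its own group (chi-square per degree of freedom 35.3 to 274). Libraries of different groups were not compared in this way.

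The 10 genes, the lists and the comparisons were chosen with earlier results of these data known. The 10 genes are named throughout. Of each list, genes past the threshold are named, up to 4 by smallest p, and otherwise up to 3 of smallest p. Egr3, and genes named only for an alternative setting, were chosen after their values were seen. Genes most like a profile are the 5 of highest r with a mean log2(CPM + 1) of at least 4.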

Additional observations from a re-analysis of the deposited data

Results flagged for a closer look

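Over the 5 libraries of a population, 30 sets of values were examined for a library far from the others, a test that chance trips in about 1 of 20 sets, and 2 were marked. Junb in CD34-positive cells had 1777 CPM in WT replicate 2, with the other 4 libraries at 1320 to 1374 CPM. Atf3 in the same cells had 1920 CPM in WT replicate 2, with the other 4 at 498 to 876 CPM. Both are the same library, which was the highest of its population for 9 of the 10 genes.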

How the results depend on the processing

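The 10 genes were called in few settings. In CD34-positive against a6-low cells the count of called members was 1 in the reported fit, 6 without a filter on low counts, 2 by DESeq2, 2 with the compared groups only, 3 with the replicate block, 0 without all 3 libraries of KO replicate 2, and 0 to 1 with each library left out. Without a filter Fosb, Fosl1, Jun, Junb and Atf3 joined Fosl2, at adjusted p values of 0.0315, 0.0239, 0.0229, 0.0242 and 0.00199. Within a6-high cells, CD34-positive against CD34-negative, it was 0 and, without a filter, 1 (Atf3). Between a6-high and a6-low CD34-negative cells it was 0, but 2 without a filter, 1 by DESeq2 and 1 with the replicate block (Fosl2, adjusted p = 0.0311), where the block also called Ccn1 and Egr2 of the other immediate early genes. Same-numbered a6-high and a6-low CD34-negative libraries correlated at -0.0124 to 0.466, over 0.1 in 3 of 5, and KO with WT libraries at -0.501 to 0.105, so that neither were taken as pairs. The replicate block called 0 of the 10 genes between KO and WT and changed no other call of theirs than those given. The cause of these shifts was not tested.

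Genes called of all tested moved more. For CD34-positive against CD34-negative a6-high cells they were 171, and 1242 without a filter, 853 by DESeq2, 311 with the compared groups only, 793 with the block, 32 without KO replicate 2 and 7 to 258 with each library left out. For a6-high against a6-low CD34-negative cells they were 1, and 602, 243, 0 and 60 in the same order of settings, 3 with at least 10 CPM in 2 libraries, 342 without the 2 a6-low libraries with high Itga6, 0 without KO replicate 2 and 1 to 50 with each library left out. For CD34-positive against a6-low cells they were 722, and 1900, 1596, 422 and 1733 in that order, 116 without KO replicate 2 and 41 to 691 with each library left out. KO against WT, 1 gene was called in each population. In CD34-positive cells it was 195 without a filter, 27 by DESeq2, 2 with the compared groups only, 2 with the block and 1 to 2 with each library left out. In CD34-negative a6-high cells it was 256, 38 by DESeq2, 2 with the block, 4 without KO replicate 2 and 1 to 2 with each left out, and in a6-low cells 156, 6 by DESeq2, 0 with the compared groups only, 2 with the block and 6 without KO replicate 2. In the sums it was 6 without a filter, 143 by DESeq2, 0 with the block and 0 to 10 with each sum left out. The genotype differences of the CD34 and a6 differences gave 0, but 20 and 13 without a filter and 1 by DESeq2 for CD34.

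Signs of uncalled log2 differences turned where they were small. Without KO replicate 2, Fosl1 between the a6-high populations was -0.13. For a6-high against a6-low CD34-negative cells Jun, Jund, Atf3 and Egr1 became 0.12, 0.16, 0.01 and 0.18. KO against WT without it, Fosb and Fosl1 became 0.23 and -0.40 in CD34-positive cells, Fos and Junb 0.03 and 0.21 in CD34-negative a6-high, and Fos, Fosb, Fosl1, Fosl2 and Jun 0.08, -0.17, -0.48, -0.24 and -0.09 in a6-low cells. Without the 2 a6-low libraries with high Itga6, Fos and Ier2 became -0.18 and -0.24 for a6-high against a6-low CD34-negative cells and Fosl1 0.0050 for CD34-positive against a6-low cells. KO against WT in a6-low cells, Fosb became -0.01 with DESeq2 size factors and -0.01 by DESeq2, and with the block Fosb, Fosl2 and Egr1 became -0.14, -0.07 and 0.01, and in the sums -0.10, -0.0014 and 0.01.

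With each library left out, the ranges that held both signs were as follows. Within a6-high cells, CD34-positive against CD34-negative, Fosb ran from -0.44 to 0.23, Fosl1 from -0.20 to 0.39 and Fosl2 from -0.16 to 0.06. Between a6-high and a6-low CD34-negative cells Fos ran from -0.07 to 0.39, Jun from -0.36 to 0.02, Jund from -0.17 to 0.12, Egr1 from -0.22 to 0.13 and Ier2 from -0.15 to 0.19, and between CD34-positive and a6-low cells Fos from -0.36 to 0.11. KO against WT in CD34-positive cells, Fosb ran from -0.63 to 0.23, Fosl1 from -0.40 to 0.79, Fosl2 from -0.22 to 0.07, Jun from -0.05 to 0.41, Atf3 from -0.84 to 0.18 and Egr1 from -0.34 to 0.07. In CD34-negative a6-high cells Fos ran from -0.57 to 0.04, Fosb from -0.56 to 0.80, Fosl2 from -0.05 to 0.35, Jun from -0.33 to 0.48, Junb from -0.55 to 0.22, Atf3 from -0.71 to 0.49 and Egr1 from -0.24 to 0.49. In a6-low cells Fos ran from -0.85 to 0.08, Fosb from -0.17 to 0.17, Fosl1 from -0.48 to 1.24, Fosl2 from -0.24 to 0.26, Jun from -0.09 to 0.32 and Egr1 from -0.17 to 0.09. In the sums Fosb ran from -0.25 to 0.24, Fosl1 from -0.30 to 0.87, Fosl2 from -0.11 to 0.15, Jun from -0.07 to 0.25, Junb from -0.21 to 0.14, Atf3 from -0.67 to 0.15 and Egr1 from -0.28 to 0.16. The order of levels kept 8 of 10 ranks with the longest transcript and 10 with plain library totals. With 2 KO libraries per group, the number of libraries limits the precision, and the effect of depth was not tested.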
